A study of Mus musculus with 9 samples.

Results

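S100 proteins are small calcium-binding proteins, and 10 of their genes, S100a8, S100a9, S100a7a, S100a3, S100a4, S100a6, S100a10, S100a11, S100a14 and S100a16, were followed through the epidermis of mouse ears. They were taken by gene symbol from a table of 52550 genes, and all 10 passed the low-count filter in every comparison. Imiquimod with water raised the counts of S100a8 and S100a9 from 1.09 to 5.12 CPM (counts scaled to the library total) to 105 to 1053 CPM, whereas S100a3 fell to 0.277 of its control level. Neither S100a8 nor S100a9 differed between XYF and water under imiquimod beyond the spread of the libraries.

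S100 proteins bind calcium through paired EF-hand motifs and usually act as dimers, and most of the family lies in a gene cluster within the epidermal differentiation complex. S100a8 and S100a9 together form calprotectin, which withholds zinc and manganese from microbes and, once released, is sensed as an alarmin through Toll-like receptor 4 and the receptor RAGE. Neutrophils carry calprotectin in bulk, and keratinocytes start to make it in psoriasis and in wounds.

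Total RNA came from epidermal ear sheets of wild type C57BL/6 mice (C57BL/6J in the study's methods) aged 8 weeks, with 3 libraries per group. The control group received Vaseline on the skin and ddH2O by mouth (VAS + H2O), the model group had imiquimod, which activates Toll-like receptor 7, with ddH2O (IMQ + H2O), and the third received imiquimod and the herbal decoction XYF (IMQ + XYF). Vaseline or imiquimod was applied for 5 days, and 200 µl of ddH2O or of XYF at 23.3 mg/g was given by gavage for 10 days. The study's methods give male mice and name 2 mice as the source of the ear sheets, but not how many went into each library, so the p-values measure the spread between these libraries, which may be partly technical.

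Libraries held 30298275 to 64771160 counts, and a floor of 3 counts, which covers counting error only, was 0.0463 to 0.0990 CPM. Keratinocyte markers summed to 47330 to 69880 CPM in every library, as the label of epidermis would have it, and Langerhans cell markers to 541.7 to 700.1 CPM. Markers of other tissue were also present. Cartilage markers summed to 193.6 to 462.8 CPM in VAS + H2O, 38.9 to 82.9 in IMQ + H2O and 140.6 to 204.6 in IMQ + XYF, and dermal fibroblast markers to 130.4 to 722.7, 181.1 to 214.5 and 220.1 to 357.2 CPM. The highest value of both lists was that of VAS + H2O replicate 2. The fibroblast markers did not move as one. Thy1, which T cells also carry, and Fbln1 were higher DEGs in IMQ + H2O against VAS + H2O (differentially expressed genes, defined with the first comparison), Thy1 with means of 127.4 against 53.5 CPM, and Col1a2 and Pdgfrb were lower DEGs. The other 6 of the 10 had negative log2 fold changes and did not pass, and the median over the 10 was −2.35. Below every control were 6 or 7 of the 10 in each IMQ + H2O library, although the sums overlapped with those of VAS + H2O. In such bulk samples, a change in the number of cells of a type and a change in RNA per cell cannot be told apart.

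All 10 genes lie on chromosome 3 (GRCm38). All but S100a10 and S100a11 fill the stretch from 90526856 to 90695721 in the order S100a14, S100a16, S100a3, S100a4, S100a6, S100a7a, S100a8 and S100a9, and the other two, S100a11 (93520488 to 93526287) and S100a10 (93555080 to 93564643) lie 2824.8 kb further on. S100a9 is read from the minus strand and the other 9 from the plus strand. The bases before the start sites of the genes at the S100a9 end of the cluster are shown because S100a8 and S100a9 moved together and their neighbour S100a7a did not pass the test, and those of S100a4 because it fell. They are from RefSeq (GRCm38.p6), which gave 12 start windows of 300 bases for 8 of the 10 genes. S100a10 and S100a14 had none. Each line runs 5′ to 3′ from 250 bases before the start to 20 bases from it, and capitals mark matches to the motifs searched on both strands.
S100a8, chr3:90668821-90669090, plus strand: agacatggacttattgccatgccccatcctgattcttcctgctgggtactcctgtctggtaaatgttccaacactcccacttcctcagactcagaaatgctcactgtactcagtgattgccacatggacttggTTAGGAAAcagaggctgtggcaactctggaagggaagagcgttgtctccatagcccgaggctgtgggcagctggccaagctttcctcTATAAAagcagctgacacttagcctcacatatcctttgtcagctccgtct
S100a9, chr3:90695702-90695971, minus strand: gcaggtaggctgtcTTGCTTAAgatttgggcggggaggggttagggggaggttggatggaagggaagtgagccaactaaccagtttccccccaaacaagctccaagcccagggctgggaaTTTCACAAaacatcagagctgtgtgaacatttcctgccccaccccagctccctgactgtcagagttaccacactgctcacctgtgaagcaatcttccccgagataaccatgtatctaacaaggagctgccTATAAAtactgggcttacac
S100a7a, chr3:90654052-90654321, plus strand: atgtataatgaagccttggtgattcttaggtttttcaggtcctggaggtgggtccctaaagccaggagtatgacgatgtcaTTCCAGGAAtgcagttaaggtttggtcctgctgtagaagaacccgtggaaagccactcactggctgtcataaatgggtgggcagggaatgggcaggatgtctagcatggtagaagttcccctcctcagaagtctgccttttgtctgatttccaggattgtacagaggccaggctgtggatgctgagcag
S100a4, chr3:90603520-90603789, plus strand: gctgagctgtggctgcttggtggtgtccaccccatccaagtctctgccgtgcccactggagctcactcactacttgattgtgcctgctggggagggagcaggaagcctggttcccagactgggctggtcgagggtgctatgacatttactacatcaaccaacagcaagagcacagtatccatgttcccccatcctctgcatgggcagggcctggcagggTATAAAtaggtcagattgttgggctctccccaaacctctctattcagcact

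The motifs were those of C/EBP (TTNNGNAA), AP-1 (TGANTCA) and STAT (TTCNNNGAA) factors and the TATA box (TATAAA), and no 2 of the matches in the lines above overlap. S100a8 held a C/EBP match at −117 and a TATAAA at −30, counted in bases from the start. S100a9 held C/EBP matches at −236 and −130 and a TATAAA at the annotated start itself. S100a7a held a STAT match at −169 and S100a4 a TATAAA at −31. S100a3, which also fell and whose windows are not shown, held C/EBP matches at −116 and −198 and a TATAAA at −52, each in a different window. In the windows of 300 bases, a C/EBP match occurred in 4 of the 12 of these genes against 40.7% of all 32851 RefSeq windows, a TATAAA in 4 against 13.6%, an AP-1 match in 2 against 7.81%, with 2 matches before S100a11, and a STAT match in 1 against 8.30%. A match describes letters only and is not evidence of binding.

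The first comparison, IMQ + H2O against VAS + H2O, asks what imiquimod did to these genes. Imiquimod raised S100a8, S100a9 and S100a6 and lowered S100a3 and S100a4, while S100a7a, S100a10, S100a11, S100a14 and S100a16 did not pass the test. A differentially expressed gene (DEG) had to reach 0.05 in the p of edgeR's quasi-likelihood test, adjusted after Benjamini and Hochberg over all genes, and 1 in the size of its log2 fold change. By that rule 3 of the 10 genes were higher, where 3.64% of all 18009 tested genes were, and 2 were lower, where 4.04% were. The calls of S100a6 and S100a4 lay at the fold threshold and held in 1 and 3 of the 6 fits that left out a library. Values of 7 of the 10 did not overlap between the groups, against 45.0% of all tested genes. The median log2 fold change of the 10 genes was 0.44, against −0.03 for all tested genes.

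S100a8, a subunit of calprotectin, had 2.14, 1.15 and 1.09 CPM in the VAS + H2O libraries, resting on 101, 38 and 38 counts, and 105.1, 141.5 and 982.6 CPM in IMQ + H2O. Each imiquimod library lay far above all controls, and replicate 3 stood 9.35-fold above replicate 1 of its own group. The log2 fold change was 8.09 ± 1.15 (SE, n = 3 per group; 95% interval 5.36 to 10.81), with an adjusted p of 0.0089 in edgeR. Its partner S100a9 had 5.12, 2.76 and 3.10 CPM in VAS + H2O and 125.3, 165.0 and 1053 CPM in IMQ + H2O. The libraries stood in the same order under imiquimod as for S100a8, and the groups did not overlap. The log2 fold change was 6.91 ± 1.03 (95% interval 4.47 to 9.35; edgeR adjusted p = 0.00978). Without IMQ + H2O replicate 3 the log2 fold changes were 6.35 for S100a8 and 5.28 for S100a9, and both were still DEGs, with adjusted p of 0.00158 and 0.002 in edgeR.

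**Figure D1:**
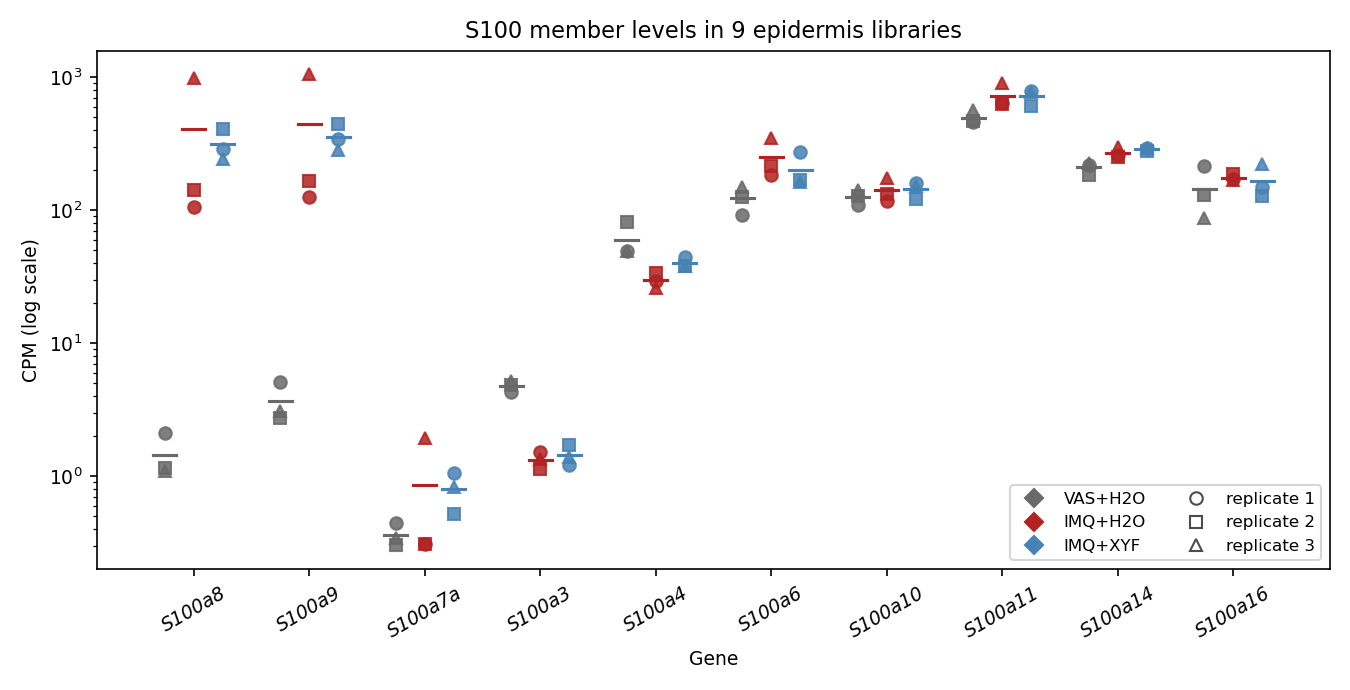
CPM (log axis) of the 10 S100 genes in the 9 libraries, coloured by group and shaped by replicate number, with a bar at each group mean. S100a8 and S100a9 sit between 1.09 and 5.12 CPM in VAS + H2O and between 105.1 and 1053 CPM under imiquimod, and S100a3 sits at 4.32 to 5.19 CPM against 1.14 to 1.73.

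S100a3, a cysteine-rich S100 protein of the hair cuticle, was the clearest of the genes that fell. It had 4.32, 4.83 and 5.19 CPM in VAS + H2O and 1.52, 1.14 and 1.34 CPM in IMQ + H2O. The values were tight within both groups and did not overlap. The log2 fold change was −1.85 ± 0.20 (95% interval −2.33 to −1.37; edgeR adjusted p = 0.00575), and by p it was number 118 of the tested genes, ahead of S100a8 at 437. Hair shaft and cuticle markers summed to 32.8 to 38.0 CPM in VAS + H2O and 18.3 to 25.0 CPM in IMQ + H2O. Of 15 such markers in the table, 5 were tested and 2 were lower DEGs, the hair cuticle keratin Krt32 with a log2 fold change of −1.83 and the Wnt effector Lef1 with −1.71. Msx2 had −0.69 (edgeR adjusted p = 0.0158), under the fold threshold. Hoxc13 stayed level, with means of 6.61 CPM in VAS + H2O and 6.41 in IMQ + H2O. Krt83, near the floor, went the other way with 0.69, and neither of the last pair passed. Padi3, the enzyme that citrullinates S100a3, had a mean of 0.108 CPM in VAS + H2O and no count in IMQ + H2O. The part of the hair markers in the fall of S100a3 was not tested.

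S100a4, a motility-associated S100 protein made by fibroblasts and leukocytes, had 49.1, 81.9 and 49.8 CPM in VAS + H2O and 29.7, 33.6 and 26.1 CPM in IMQ + H2O. The groups did not overlap, and VAS + H2O replicate 2 was the highest of the 9 libraries. The log2 fold change was −1.03 ± 0.23 (edgeR adjusted p = 0.0228). It was −0.74 (edgeR adjusted p = 0.0371) without VAS + H2O replicate 2, the library with most dermal fibroblast and cartilage marker RNA, and then no longer a DEG. It also missed the adjusted p without IMQ + H2O replicate 1 (edgeR adjusted p = 0.0696) or replicate 3 (edgeR adjusted p = 0.0697). The part of these markers was not tested. Of the exon bases of S100a4, 51.7% also belong to the overlapping gene Gm42674 on the same strand, so its counts could have been shared.

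S100a6, or calcyclin, a protein of dividing cells, had 91.8, 126.3 and 150.3 CPM in VAS + H2O and 184.4, 216.7 and 349.2 CPM in IMQ + H2O, without overlap. The log2 fold change was 1.014 ± 0.277 (95% interval 0.36 to 1.67; edgeR adjusted p = 0.0422), just past both thresholds. Its log2 fold change was 0.70 without IMQ + H2O replicate 3 and 0.84 without VAS + H2O replicate 1. It was a DEG in 1 of the 6 fits that left out a library, that without IMQ + H2O replicate 1.

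S100a7a, the mouse relative of psoriasin, was the lowest of the 10 genes in VAS + H2O. It had 21, 10 and 12 counts in VAS + H2O, 9, 12 and 84 in IMQ + H2O and 68, 17 and 29 in IMQ + XYF. Only IMQ + H2O replicate 3 lay above the controls within its group, and the log2 fold change of 1.23 ± 0.77 (95% interval −0.60 to 3.06; edgeR adjusted p = 0.289) became −0.24 without that library. Although it lies 10.3 kb from S100a8, its level stayed between 0.304 and 1.95 CPM in all libraries.

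The remaining genes were high in all groups. S100a11, which keratinocytes make constitutively and which joins the cornified envelope, had 460.7 to 565.0 CPM in VAS + H2O and 629.4 to 904.2 CPM in IMQ + H2O, and its log2 fold change of 0.53 ± 0.17 had an adjusted p of 0.0603 in edgeR. S100a14, found in epithelia, had 184.1 to 225.6 and 251.5 to 299.9 CPM, with a log2 fold change of 0.35 ± 0.11 (edgeR adjusted p = 0.063). For both, the groups did not overlap, and the 95% intervals of 0.14 to 0.92 and 0.09 to 0.61 did not reach 0, while the adjusted p missed the threshold. DESeq2 gave adjusted p of 0.0153 and 0.0401, with folds under the threshold. S100a10, the partner of annexin A2, had 110.2 to 141.7 and 118.0 to 175.2 CPM, with a log2 fold change of 0.15 (95% interval −0.25 to 0.54). S100a16 varied most among the controls, from 87.9 to 214.5 CPM, and its log2 fold change was 0.26 (95% interval −0.43 to 0.96).

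**Figure D2:**
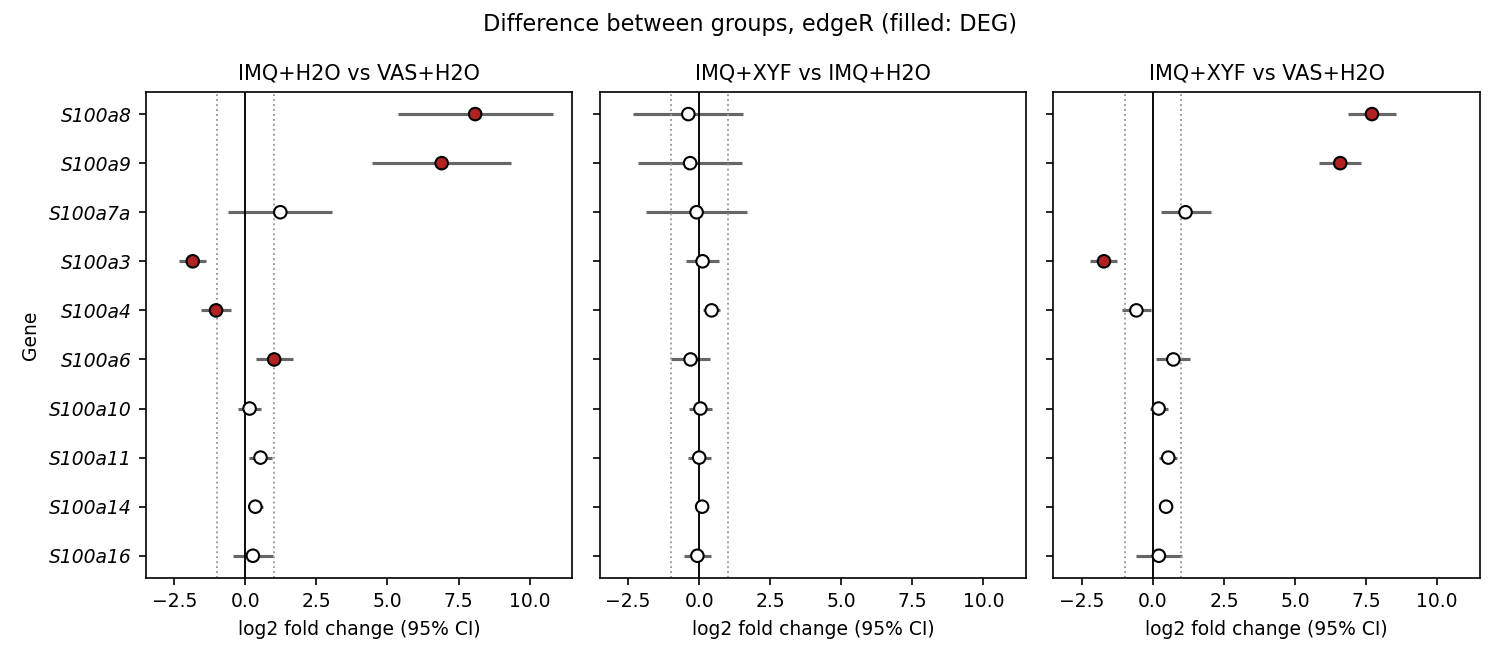
Log2 fold change with its 95% interval (horizontal axis) of each S100 gene (vertical axis) in the 3 comparisons, from edgeR, with DEGs filled and dotted lines at a log2 fold change of 1 in either direction. S100a8 and S100a9 stand at 8.09 and 6.91 in IMQ + H2O against VAS + H2O, and every point in IMQ + XYF against IMQ + H2O lies between −0.38 and 0.44.

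The order of the genes changed with imiquimod. On the scale of mean CPM per kb of exon, S100a11 stood first in VAS + H2O at 974.3, and S100a9 and S100a8 stood in places 7 and 8 at 7.01 and 2.10, ahead of S100a3 at 0.844 and S100a7a at 0.264. In IMQ + H2O, S100a11 was at 1421, S100a9 at 857.7 and S100a8 at 590.4 CPM per kb, and the ranges of these neighbours overlapped. In IMQ + XYF, S100a11 at 1416 stood above S100a9 at 685.9 without overlap, and S100a9 and S100a8 at 452.3 overlapped. In VAS + H2O, S100a14, S100a10, S100a4, S100a6 and S100a16 followed S100a11, and no neighbours among these 5 could be separated. On the scale per kb, S100a3 and S100a7a were the lowest of the 10 in all groups. The place of S100a3 rests on its exon length of 5660 bases, against 511 to 1727 for the other genes. In CPM, its VAS + H2O mean of 4.78 lay above those of S100a9 at 3.66 and S100a8 at 1.46. Its CPM range there overlapped with that of S100a9 and lay above that of S100a8. The 10 genes together took 0.120% to 0.124% of all counts in VAS + H2O, 0.157%, 0.171% and 0.391% in IMQ + H2O, and 0.215% to 0.231% in IMQ + XYF.

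The ratio of S100a8 to S100a9 counts was higher in every imiquimod library than in every control, a difference that 3 libraries a group cannot bring under 0.05 in an exact test. For each S100a9 count there were 0.417, 0.418 and 0.352 counts of S100a8 in VAS + H2O and 0.839, 0.857 and 0.933 in IMQ + H2O. The 95% counting intervals reached at most 0.610 in the controls and began at 0.7995 or above under imiquimod, but they cover counting error within a library only, not the spread between samples. The difference between the group means of the log2 ratios was 1.15, and the exact two-sided permutation test gave p = 0.1, the smallest that 3 libraries against 3 allow. In IMQ + XYF the ratios were 0.841, 0.922 and 0.848, which overlapped with IMQ + H2O (log2 difference −0.01, exact permutation test, p = 0.7). IMQ + H2O replicate 3, with 42441 counts of S100a8, and replicate 1, with 3042, had ratios of 0.933 and 0.839.

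**Figure D3:**
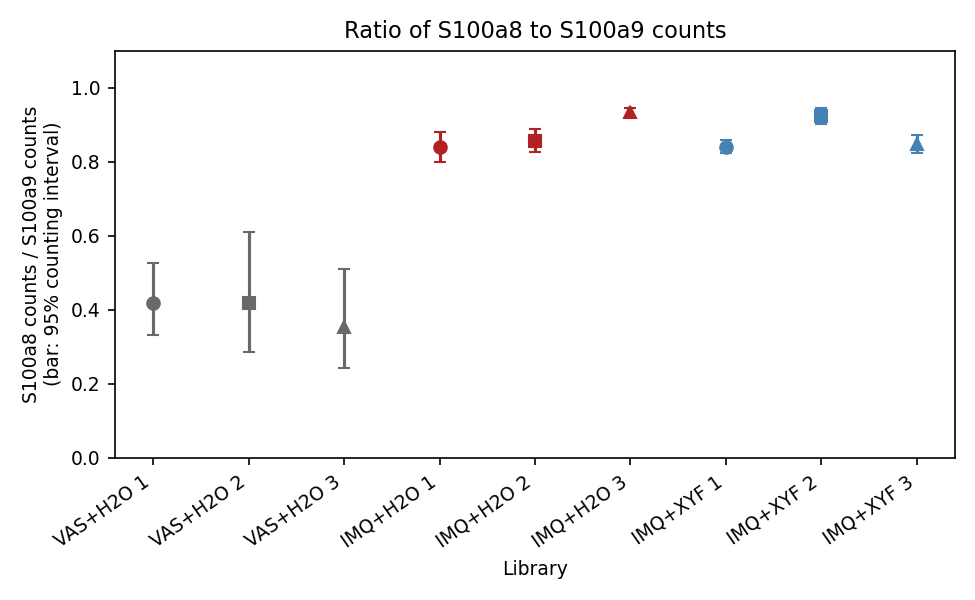
Counts of S100a8 per count of S100a9 (vertical axis) in each of the 9 libraries, with 95% counting intervals as bars. The 3 VAS + H2O libraries sit between 0.352 and 0.418 and the 6 imiquimod libraries between 0.839 and 0.933.

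Neutrophil markers moved with part of this pattern. The 18 markers summed to 17.3 to 20.3 CPM in VAS + H2O. The sums were 52.9, 61.3 and 216.3 CPM in IMQ + H2O and 134.9, 70.0 and 83.3 CPM in IMQ + XYF. Cxcr2 and Mmp9, with means of 11.4 and 6.59 CPM, made most of the control sums, and 11 to 13 of the 18 had no count in each control. Mmp9 did not pass in IMQ + H2O against VAS + H2O, with a log2 fold change of −0.13. Elane had no count in any library, and Ly6g had none in VAS + H2O, in IMQ + H2O replicates 1 and 2 and in IMQ + XYF replicate 2. Cxcr2, a chemokine receptor, rose by a log2 fold change of 2.38 (edgeR adjusted p = 0.00379), and Cxcr1 was also a higher DEG among the 4 of the 18 that were tested. Of the 18, 5 lay above every control in IMQ + H2O replicate 1, 14 in replicate 2 and 16 in replicate 3, and 16, 10 and 14 in IMQ + XYF replicates 1, 2 and 3. Cxcr2 was at 10.6 to 12.7 CPM in VAS + H2O. It was at 49.2 and 50.4 CPM in IMQ + H2O replicates 1 and 2 and at 60.9 and 54.3 CPM in IMQ + XYF replicates 2 and 3, most of each summed level. In IMQ + H2O replicate 3 and IMQ + XYF replicate 1 it was at 80.7 and 56.1 CPM, of sums of 216.3 and 134.9 CPM. In IMQ + H2O replicate 1, Cxcr1 had 14 counts against none in each control. In that library 10 of the 18 had no count.

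Other markers of the list, Csf3r, Retnlg, Trem1 and Clec4d, were chosen after their values were seen. Csf3r, the receptor of granulocyte colony-stimulating factor, had 5, 33 and 1642 counts in IMQ + H2O and 1459, 43 and 214 counts in IMQ + XYF, against 0 to 3 counts in VAS + H2O. In IMQ + H2O replicate 1, Csf3r had 0.173 CPM, Retnlg no count, Trem1 3 counts and Clec4d 4 counts. In that same library S100a8 was at 105.1 CPM, 72.0-fold the mean of the controls, and S100a9 at 125.3 CPM, 34.2-fold. In IMQ + XYF, replicate 2 had the highest S100a8 of its group, at 410.7 CPM, and the lowest Csf3r, at 1.33 CPM. That Csf3r value rested on 43 counts and lay above all controls, and Trem1 had 23 and Clec4d 26 counts there. S100a8 and S100a9 were highest in IMQ + H2O replicate 3, as were all 4 of these markers and Cxcr2. The part of neutrophils in the level of S100a8 and S100a9 was not tested. S100a7a was also highest in IMQ + H2O replicate 3, at 1.95 CPM, followed by IMQ + XYF replicates 1, 3 and 2, and IMQ + H2O replicates 1 and 2 were lowest, at 0.311 and 0.312 CPM.

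**Figure D4:**
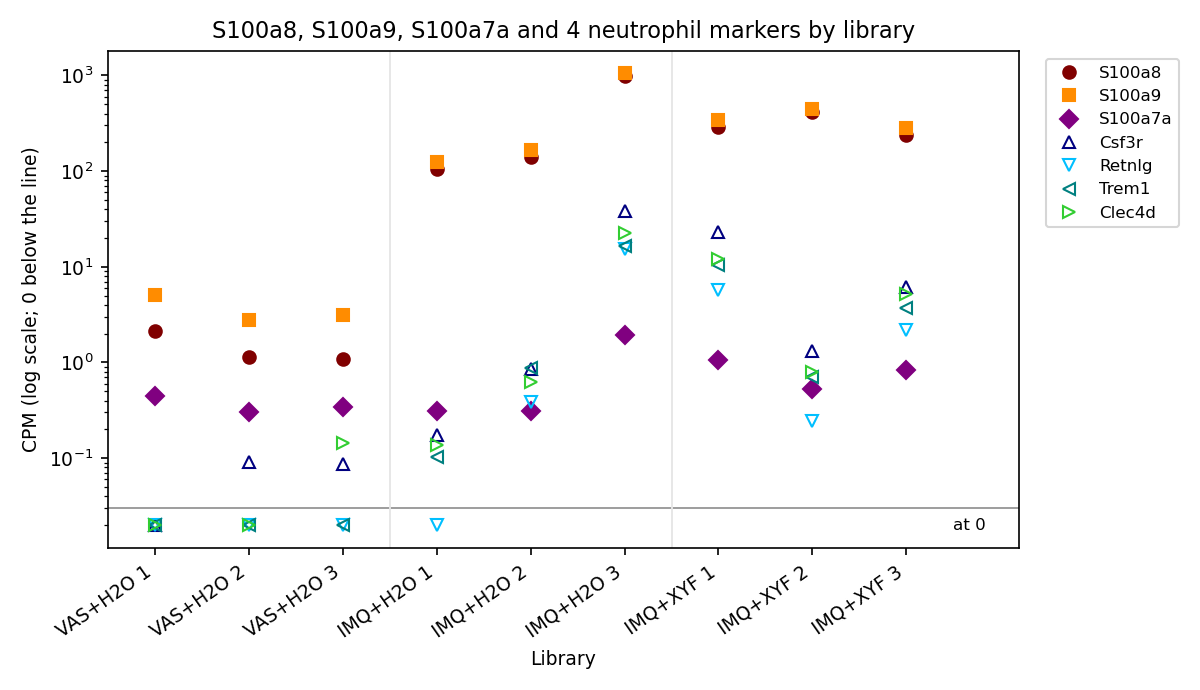
CPM (log axis, with values of 0 drawn below the line) of S100a8, S100a9, S100a7a and 4 neutrophil markers in each library. The 4 markers were chosen after their values were seen. In IMQ + H2O replicate 1, S100a8 is at 105.1 CPM, Csf3r at 0.173 and Retnlg at 0, and in IMQ + H2O replicate 3 all 7 genes are at their highest.

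Markers of monocytes and macrophages summed to 38.8 to 50.0 CPM in VAS + H2O, 41.1 to 67.3 in IMQ + H2O and 37.9 to 56.7 in IMQ + XYF. Of 10, 7 were tested against VAS + H2O and Ly6c2 was a higher DEG, with no count in the controls and a mean of 1.97 CPM in IMQ + H2O. Dendritic epidermal T cell markers summed to 47.7 to 54.8 CPM in VAS + H2O and 26.4 to 37.3 CPM in IMQ + H2O, and melanocyte markers to 17.7 to 41.0 and 14.4 to 26.4 CPM. The part of these cell types in the values of the S100 genes was not tested.

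The second comparison, IMQ + XYF against IMQ + H2O, asks whether XYF altered the response. None of the 10 genes was a DEG by edgeR, nor by DESeq2, which gave no adjusted p for S100a8, and 0.0281% of all 17793 tested genes were DEGs by edgeR. S100a4 was the only one of the 10 with an unadjusted p under 0.05, against 5.43% of all genes, and the only one whose groups did not overlap, against 10.7%. The median log2 fold change of the 10 genes was −0.03, against 0.00 for all tested genes.

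S100a8 had 290.1, 410.7 and 241.0 CPM in IMQ + XYF, all above replicates 1 and 2 of IMQ + H2O and below replicate 3. Its log2 fold change was −0.38 (95% interval −2.31 to 1.55; edgeR adjusted p = 1). S100a9 had 344.9, 445.2 and 284.1 CPM and a log2 fold change of −0.32 (95% interval −2.16 to 1.52), again between replicate 3 and the other libraries of IMQ + H2O. Without IMQ + H2O replicate 3 the log2 fold changes turned to 1.35 and 1.30 (edgeR adjusted p = 0.345 and 0.285), so that the direction rested on that library. IMQ + H2O replicate 3 was the highest of the 9 libraries for 7 of the 10 genes, S100a8, S100a9, S100a7a, S100a6, S100a10, S100a11 and S100a14, and for 17.6% of the 18492 genes that pass the filter over all libraries.

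S100a4 had 44.5, 38.1 and 37.9 CPM in IMQ + XYF, each above every IMQ + H2O library and below every VAS + H2O library. The log2 fold change against IMQ + H2O was 0.44 ± 0.12 (95% interval 0.15 to 0.73; unadjusted p = 0.00929 and adjusted p = 0.599 in edgeR). The summed dermal fibroblast and cartilage markers were also higher in each IMQ + XYF library than in each IMQ + H2O library, and their part was not tested. S100a3 had 1.23, 1.73 and 1.40 CPM, within and just above the range of IMQ + H2O (log2 fold change 0.12, 95% interval −0.45 to 0.69). S100a6 had 272.9, 169.5 and 163.2 CPM (−0.30, 95% interval −0.996 to 0.39), and S100a7a had a log2 fold change of −0.09 (−1.87 to 1.69).

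For the abundant genes the intervals were narrower. S100a11 had a log2 fold change of 0.00 (95% interval −0.41 to 0.41), S100a14 0.11 (−0.10 to 0.31), S100a10 0.04 (−0.36 to 0.45) and S100a16 −0.06 (−0.53 to 0.40). These intervals leave room for changes of that size, and those of S100a8 and S100a9 for changes of more than 1 in either direction.

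The third comparison, IMQ + XYF against VAS + H2O, shares its controls with the first and its XYF libraries with the second, so it is no independent support for either. S100a8 and S100a9 were higher DEGs, where 4.58% of all 17954 tested genes were, and S100a3 was a lower DEG, where 3.05% were. By the adjusted p alone, 4 of the 10 genes were higher, where 16.7% of all genes were, and 1 was lower, where 12.0% were. The groups did not overlap for 8 of the 10 genes, against 47.5% of all tested genes. The median log2 fold change was 0.50, against −0.04 for all tested genes.

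The rise of S100a8 was 7.71 ± 0.35 on the log2 scale (95% interval 6.87 to 8.55; edgeR adjusted p = 0.000145) and that of S100a9 6.59 ± 0.31 (edgeR adjusted p = 0.000145), with smaller standard errors than in the first comparison. S100a3 fell by 1.72 ± 0.20 (edgeR adjusted p = 0.00201). S100a11, with 607.8 to 789.6 CPM in IMQ + XYF, and S100a14, with 279.0 to 295.1 CPM, passed the adjusted p but not the fold threshold, with log2 fold changes of 0.54 (edgeR adjusted p = 0.0234) and 0.46 (edgeR adjusted p = 0.0109). S100a7a, at 0.524 to 1.07 CPM, lay above all controls with a log2 fold change of 1.15 (edgeR adjusted p = 0.059), and was a DEG without IMQ + XYF replicate 2. S100a4 and S100a6 did not overlap with the controls, with log2 fold changes of −0.58 and 0.72, and did not pass (edgeR adjusted p = 0.0804 and 0.0751).

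Along the cluster, genes that fell and genes that rose were neighbours. S100a3 and S100a4, which lie side by side, had log2 fold changes of −1.85 and −1.03 in IMQ + H2O against VAS + H2O, and S100a6, which follows with S100a5 in between, had 1.014. S100a7a, S100a8 and S100a9 had 1.23, 8.09 and 6.91, and S100a8 lies 22.6 kb from S100a9. S100a14 and S100a16 at the other end had 0.35 and 0.26. Of the 8 relatives looked up in the table, S100a1 and S100a13 at that end were tested and did not pass, with log2 fold changes of −0.17 and −0.30, and S100a2, S100a5, S100g, S100z and S100a7l2 were too low to be tested.

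**Figure D5:**
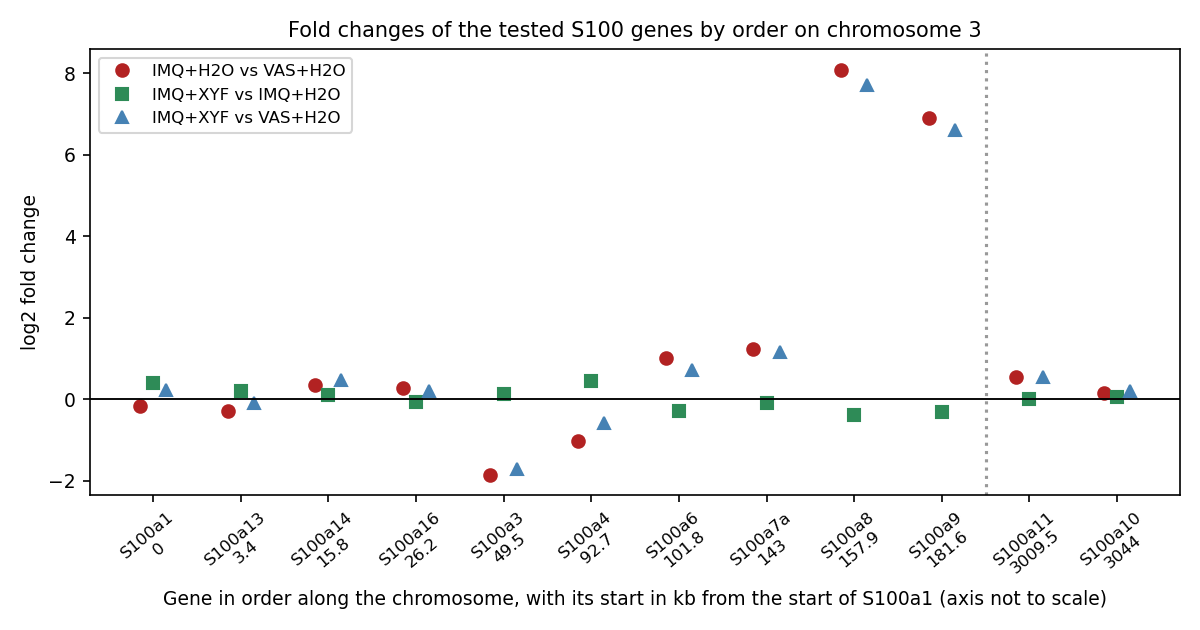
Log2 fold change (vertical axis) of the 12 tested S100 genes of chromosome 3 in their order along it (horizontal axis, with each start in kb from that of S100a1), with a dotted line before the distant pair. S100a8 and S100a9 stand at 8.09 and 6.91 while their neighbour S100a7a stands at 1.23 and S100a3 at −1.85.

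S100b, a relative made by chondrocytes, glia and Langerhans cells among others, was the third relative tested and the only one that passed. It had 21.3, 38.6 and 22.2 CPM in VAS + H2O, 8.43, 6.37 and 4.77 CPM in IMQ + H2O and 19.0, 11.4 and 15.99 CPM in IMQ + XYF. All imiquimod libraries lay below the controls, and its log2 fold change was −2.09 ± 0.31 (edgeR adjusted p = 0.00985). Against IMQ + H2O, XYF gave 1.26 ± 0.27 (edgeR adjusted p = 0.415). All 7 tested cartilage markers were lower DEGs in IMQ + H2O, and their part in the fall of S100b was not tested.

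Of 11 receptors and adaptors of the S100 alarmins, all tested, Myd88, the adaptor of the Toll-like receptors, was the 1 DEG, where 7.68% of all tested genes were DEGs in either direction. It had a log2 fold change of 1.004 ± 0.123 (edgeR adjusted p = 0.00709), just past the fold threshold. In IMQ + XYF against VAS + H2O it had 0.94 (edgeR adjusted p = 0.00289) and was not a DEG. Basigin (Bsg), a receptor of S100a9, rose by 0.35 (edgeR adjusted p = 0.0344). Tlr4 was at 1.19 CPM in VAS + H2O and 1.71 in IMQ + H2O, and Ager, which encodes RAGE, at 2.48 and 1.82, and neither passed. Cd14, the co-receptor of Tlr4, had a log2 fold change of 4.13 ± 1.33 (edgeR adjusted p = 0.0672) and 1.76, 2.68 and 50.4 CPM in IMQ + H2O, where only replicate 3 was far above the others. Cd33 had 4.12 ± 1.42 (edgeR adjusted p = 0.0801) and 0.449, 0.598 and 14.1 CPM in IMQ + H2O, where again only replicate 3 was far above the others. In IMQ + XYF, Cd14 had 31.7, 2.28 and 10.9 CPM. Against VAS + H2O, Cd14 and Cd33 were higher DEGs there, with log2 fold changes of 3.855 and 4.188 (edgeR adjusted p = 0.0196 and 0.0155). Ager was a lower DEG in that comparison, with −1.03 (edgeR adjusted p = 0.0397). Of all tested genes, 4.58% were higher and 3.05% lower DEGs. Between XYF and water none of the 11 was a DEG by edgeR or DESeq2, and 0 had an unadjusted p under 0.05, where 5.43% of all genes did. Tlr4 and Ager were chosen for naming after their values were seen.

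Among 12 partner proteins, 10 were tested. Cacybp, the calcyclin-binding protein, rose by 0.86 ± 0.13 (edgeR adjusted p = 0.0103) and Myh9, the non-muscle myosin that S100a4 binds, by 0.80 ± 0.15 (edgeR adjusted p = 0.0166), both under the fold threshold. Annexin A6 (Anxa6) was the 1 DEG of the 10, where 7.68% of all tested genes were DEGs in either direction. It fell by 1.30 ± 0.28 (edgeR adjusted p = 0.0222). Anxa2, the partner of S100a10 and named after its values were seen, was at 1419 CPM in VAS + H2O and 1679 CPM in IMQ + H2O and did not pass. Between XYF and water none of the 10 was a DEG by edgeR or DESeq2, and 1, Anxa6, had an unadjusted p under 0.05, where 5.43% of all genes did.

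Of 20 known inducers and regulators of calprotectin, 18 were matched and 15 tested against VAS + H2O. Il36a and Il36g were not matched by symbol, so nothing is said of their levels. By the adjusted p alone, 6 of the 15 were higher with imiquimod, where 12.7% of all tested genes were, and none was lower, where 9.41% were. Il1a and Il17c, both cytokines of keratinocytes, were the 2 higher DEGs, where 3.64% of all tested genes were, with log2 fold changes of 2.15 ± 0.23 and 3.81 ± 0.77 (edgeR adjusted p = 0.00575 and 0.0185). Il1a had 6.03, 5.10 and 6.14 CPM in VAS + H2O and 19.3, 24.0 and 34.2 CPM in IMQ + H2O. Il17c rested on 8, 2 and 0 counts in VAS + H2O and 45, 29 and 58 in IMQ + H2O. Cebpb and Stat3, transcription factors, rose by 0.88 ± 0.08 and 0.77 ± 0.10 (edgeR adjusted p = 0.00372 and 0.00806). Il17a and Il22, cytokines of T cells, had no count in any library, which at this depth leaves up to the floor of 3 counts in each. Between XYF and water none of the 15 was a DEG by edgeR or DESeq2, and 2 had an unadjusted p under 0.05, where 5.43% of all genes did.

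The genes most like S100a8 over the 9 libraries, by Pearson's r of log2 CPM among 18482 genes, were Gk, Gm2606, Dnmt3l, Stom and Mlkl, with r between 0.994 and 0.995. Stom, the membrane protein stomatin, had means of 68.9, 313.5 and 338.3 CPM in VAS + H2O, IMQ + H2O and IMQ + XYF. Those most like S100a7a were Mrgpra2b, Tnfrsf26, Csf2ra, C5ar1 and Ifitm1, with r of 0.96 to 0.974, and those most like S100a3 were Gm20634, Gm26574, Gm43843, Atrn and Tlr5, with r of 0.978 to 0.983. Among the 10 genes, S100a14 had an r of 0.918 and S100a3 of −0.95 with S100a8, and S100a16 one of 0.378. These values describe 9 libraries in 3 groups that share the step between control and imiquimod.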

How the data were processed

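Epidermal RNA was sequenced in 9 libraries. The authors deposited whole-number counts per gene and library, without normalization. The submitters' processing notes name FastQC, STAR 2.5, Cuffnorm and DESeq 1.22.1, the build is GRCm38, and the paper's methods name Ensembl release 90. The counting tool is not given in the sources used here. The labels call the libraries strand-specific, but the strand setting of the counting is likewise not given.

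Calculations used R 4.3.3. A fit of edgeR 4.0.16 was made for each comparison from its 6 libraries alone (TMM, filterByExpr, quasi-likelihood test), and p-values were adjusted by Benjamini-Hochberg over all genes tested. Standard errors and 95% intervals were derived from that test. CPM was scaled by the TMM factors of 18492 genes kept by the filter across the 9 libraries, and log2 CPM a pseudocount of 0.1. Exon lengths and positions were from GENCODE release M21. The self-test on simulated data ran before the fits. Alternatives were DESeq2 1.42.0, RLE size factors, other filters, a joint fit of the 9 libraries, a block for the replicate number, no fold threshold, and each library left out.

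The S100 genes and the lists were chosen with earlier results of these data known. Named beside the S100 genes were up to 4 genes per list with the smallest p in IMQ + H2O against VAS + H2O, and the 5 genes most correlated with each of S100a8, S100a7a and S100a3. Padi3, Hoxc13, Elane, Ly6g, Il17a and Il22, outside that rule, were named after their values were seen. Libraries of 1 group differed by a chi-square per gene of 26.1 to 82.7, so none was a copy.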

Additional observations from a re-analysis of the deposited data

How the results depend on the processing

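In IMQ + H2O against VAS + H2O, 5 S100 genes were called, where 7.68% of all tested genes were. The number stayed at 5 under DESeq2, RLE size factors, a minimum of 10 counts and all 9 libraries in 1 fit. By the adjusted p alone it was also 5, but there 22.1% of all tested genes passed. It was 4 without a low-count filter, and ranged from 3 to 4 when a library was left out. S100a4 and S100a6 were the genes lost, and each lies at the fold threshold of 1. The number was 3 without VAS + H2O replicate 2 and without IMQ + H2O replicate 3. In IMQ + XYF against VAS + H2O it was 3, where 7.64% of all tested genes were called, and ranged from 3 to 4 with a library left out. It was 5 with the adjusted p alone, where 28.7% of all tested genes passed. The number was 0 in IMQ + XYF against IMQ + H2O under every alternative. The log2 difference of the S100a8 to S100a9 ratio ranged from 1.07 to 1.19, from −0.05 to 0.04 and from 1.06 to 1.18 with a library left out.

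Same-numbered libraries deviated together little, with correlations of −0.145 to 0.113, and only replicate 3 in the comparisons with IMQ + XYF exceeded 0.1 (0.113 and 0.106). In IMQ + H2O against VAS + H2O, 4 of the 6 libraries correlated best with the library of their own number, and 2 did in each other comparison. The numbers were not taken as a pairing. With the replicate number as a block, 3 S100 genes were called in IMQ + H2O against VAS + H2O, where S100a4 and S100a6 had log2 fold changes of −0.99 and 0.99, and 0 and 3 in the other comparisons. The DEGs of the whole table went from 1383 to 1100, from 5 to 0 and from 1371 to 1113. DESeq2 called 1673, 129 and 1495.

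S100a7a, with under 100 counts per library, passed in IMQ + XYF against VAS + H2O with a minimum of 10 counts (log2 fold change 1.18, edgeR adjusted p = 0.0369) and without IMQ + XYF replicate 2 (1.39). Its depth limits it to large changes.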
